A study of Mus musculus with 24 samples.

Results

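The 10 genes described here are known from reactive astrocytes and from the acute-phase response. Serpina3n, Lcn2, C3, Steap4, Serping1, Osmr, Cp, Lif, Il6, and Stat3 were followed across 8 mouse astrocyte lines. They were chosen by name, with earlier results of these data known. Serpina3n was picked for its rise in the male p53 Y217C line. Each of the 10 genes was found by its Ensembl identifier in a count table of 14427 genes, and all 10 passed its filter on low counts. By line mean, Lcn2 lay above 1 CPM only in female p53 R172H and Y202C, and Serpina3n only in female p53 R172H and male p53 Y217C. Steap4 did so only in female p53 R172H and Y202C and male p53 Y217C (1.03 CPM). Il6 did so only in female p53 R172H and Y202C and male p53 Y202C (1.41 CPM). These genes are in the table only through lines where they are high, so the filter favours a call of higher there. Because male p53 Y217C values entered the choice, they are described here without a test.

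Expression was measured by RNA-seq of polyA RNA in 24 libraries, 3 from each line, on the C57BL/6 background. For each sex there was a p53 KO line and a line for each of the mutants R172H, Y202C, and Y217C. All came from cortical astrocytes of postnatal day 1 Trp53 f/- pups, which carry 1 floxed and 1 deleted Trp53 allele, pooled from several pups of a sex and grown in DMEM/F12 with 10% FBS. A p53 mutant line was first given a retrovirus that carries its Trp53 cDNA with IRES-eGFP and was sorted for eGFP. Every line, KO included, was then given a lentivirus with Cre and a puromycin marker, which removes the floxed allele. The p53 KO lines received neither the retrovirus nor the eGFP sort. The mutant protein was therefore overexpressed in cells without wild-type p53, and each line is a single selected population at passages 10 to 15. The replicates of in vitro work were separate thaws and platings of a line, so the p-values measure the spread between platings. There was 1 culture per sex, and sex and culture cannot be told apart.

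Reactive astrocytes are astrocytes that respond to injury or inflammation. The acute-phase response is the change in secreted plasma proteins that inflammatory cytokines bring about, best known in liver. In both, cytokines of the IL-6 family bind receptors that share the gp130 subunit (Il6st), JAK kinases phosphorylate STAT3, and STAT3 acts in the nucleus together with C/EBP and NF-kB factors. Socs3 is a feedback inhibitor of this pathway.

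Levels are given as CPM, a gene's share of the TMM-scaled library total, as mean ± SD over the 3 libraries of a line. A log2 fold change is given ± its SE, with an adjusted p from edgeR's quasi-likelihood test over all 14427 genes, and a gene was called at an adjusted p of 0.05 or less. Library totals ran from 52787288 to 136503809 counts. Trp53 lay between 46.5 and 53.7 CPM in the 6 KO libraries and between 572 and 3870 CPM in the 18 mutant libraries. The female p53 Y202C line held the least Trp53 of the mutant lines (572 to 605 CPM). Of 12 astrocyte markers, 11 were measured, at a summed 3560 to 5780 CPM by library. Vim, which fibroblasts also express, made up 3330 to 4740 CPM of the line means, and Sox9 lay at 80.0 to 183 CPM, Gja1 at 81.0 to 221 CPM, and the glutamate transporter Slc1a3 at 3.14 to 281 CPM. Gfap was at 0.0482 to 0.257 CPM in 7 lines and at 6.93 ± 1.75 CPM in the male p53 Y217C line. Aqp4 was at 0 in the female p53 KO and male p53 R172H lines, and highest in the male p53 Y217C line (8.06 ± 1.11 CPM). The 6 fibroblast and mural markers listed, Col1a1 among them, summed to between 7980 and 41500 CPM. Of 13 microglial and macrophage markers, 3 were measured (Tmem119, Cd68, and Csf1r), at a summed 26.5 to 116 CPM. The other 10, among them Cx3cr1, Aif1, and Ptprc, were absent from the count table, from which the authors had removed low genes. The label of astrocyte comes from the isolation and from GFAP staining in the study, and in these libraries Gfap and Aqp4 were at or near 0 in most lines.

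The promoters of 3 genes are shown, Il6 as the cytokine at the head of the pathway, C3 as the gene with the widest range, and Serpina3n as the gene without reads in KO cells. Each line gives the 250 bases before the RefSeq start site on GRCm38.p6, 5′ to 3′ on the strand of the gene. The Il6 window is chr5:30012864-30013113 (plus strand), the C3 window is chr17:57228137-57228386 (minus strand), and the Serpina3n window is chr12:104406458-104406707 (plus strand). Capitals mark matches to letters bound by inflammatory factors. In Il6 these are an AP-1 match at -249 to -243, a C/EBP match at -128 to -121, and a kappa B match at -44 to -35, and in C3 a C/EBP match at -45 to -38. Positions count back from the start site.
Il6 promoter: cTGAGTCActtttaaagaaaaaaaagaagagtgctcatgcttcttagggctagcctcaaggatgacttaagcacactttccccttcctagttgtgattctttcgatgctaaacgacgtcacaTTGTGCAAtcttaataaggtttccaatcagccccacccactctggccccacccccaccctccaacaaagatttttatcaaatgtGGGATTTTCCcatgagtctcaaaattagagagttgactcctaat
C3 promoter: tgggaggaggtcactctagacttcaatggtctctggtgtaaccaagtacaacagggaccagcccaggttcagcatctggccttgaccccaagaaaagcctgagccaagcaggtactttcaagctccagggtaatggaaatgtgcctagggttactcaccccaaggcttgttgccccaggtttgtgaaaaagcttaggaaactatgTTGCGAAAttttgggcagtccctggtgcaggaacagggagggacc
Serpina3n promoter: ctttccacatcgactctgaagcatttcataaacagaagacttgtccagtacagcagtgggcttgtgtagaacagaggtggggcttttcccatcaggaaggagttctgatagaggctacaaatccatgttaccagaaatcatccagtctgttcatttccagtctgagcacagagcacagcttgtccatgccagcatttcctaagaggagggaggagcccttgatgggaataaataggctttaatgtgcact

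The search covered both strands of the 250 bases before the start site for 9 of the 10 genes. There was no entry for Serping1. The letters were TTCNNNGAA for STAT, TTNNGCAA for C/EBP, TGANTCA for AP-1, and the kappa B consensus. A C/EBP match stood before Lcn2, C3, Steap4, Cp, and Il6, 5 of the 9 genes, against 9.56% of 32851 promoters. For Cp it lay before the second of its 2 start sites. Genes are counted here with a match before any start site, whereas the shares are of single promoters. An AP-1 match stood before 3 genes, Cp, Lif, and Il6 (6.75% of promoters), and a kappa B match before 2, Steap4 and Il6 (3.9% of promoters). Steap4 alone held a STAT match (TTCCCGGAA, -116 to -108), which 7.02% of promoters hold. No match overlapped another. The Serpina3n, Osmr, and Stat3 windows held none of these letters. A match describes the sequence and was not tested for binding.

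**Figure D1:**
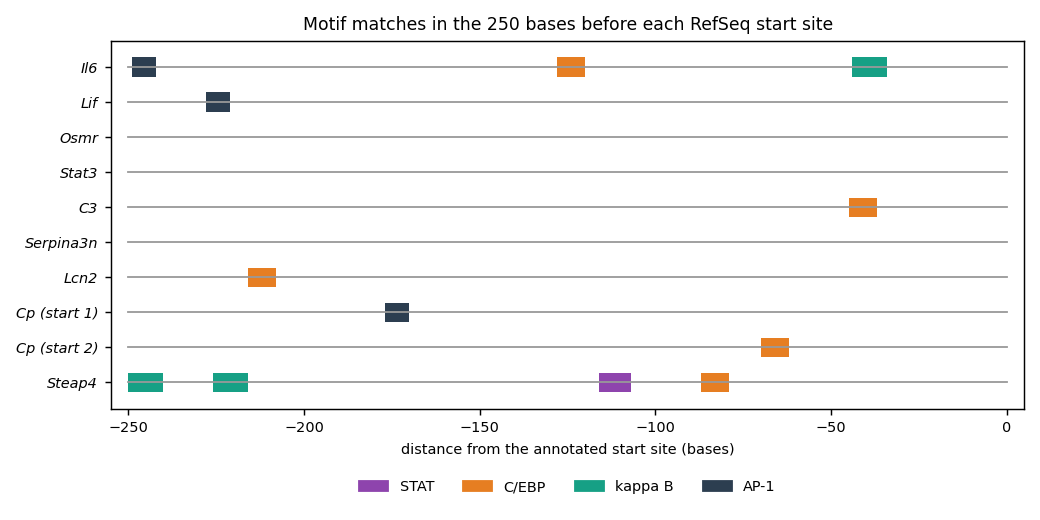
Positions of motif matches in the 250 bases before the RefSeq start site of 9 genes, on GRCm38.p6 (x axis, bases from the start site; 1 row per start site, Cp having 2). Il6 holds 3 matches and Steap4 holds 4, whereas the Serpina3n, Osmr, and Stat3 rows are empty.

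Il6 (chr5:30013114-30019981) encodes the founding cytokine of its family. It was read at 0.815, 0.935, and 0.888 CPM in the female p53 KO libraries. The female p53 R172H libraries gave 4.57, 5.42, and 5.40 CPM, and the female p53 Y202C libraries 3.84, 3.09, and 3.07 CPM. Both mutant lines lay wholly above the KO libraries, by 2.54 ± 0.22 (adjusted p = 2.93e-10) and 1.92 ± 0.22 (4.80e-08) on the log2 scale. The female p53 Y217C libraries, at 0.670, 0.572, and 0.724 CPM, lay below the KO libraries without passing the test (-0.42 ± 0.24, adjusted p = 0.135). In male cells the KO libraries gave 0.882, 0.739, and 0.921 CPM, and the p53 R172H libraries overlapped them (0.920, 0.948, and 0.662 CPM). The male p53 Y202C libraries gave 1.19, 1.61, and 1.43 CPM. That rise, 0.73 ± 0.22 (adjusted p = 0.00508), was smaller than the one in female p53 Y202C (difference -1.19 ± 0.31, adjusted p = 0.00168). The male p53 Y217C libraries, at 1.16, 0.492, and 1.04 CPM, spanned the KO range on both sides. In bulk RNA, fewer cells of a type and less RNA per cell cannot be told apart, and this holds for every level below.

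Lif (chr11:4257557-4272514), a second ligand of the gp130 family, ranged least of the 10 genes. Its highest line mean was 2.82 times its lowest. The male p53 R172H libraries were the highest, at 27.4, 23.5, and 26.0 CPM, against 16.6, 15.9, and 17.4 CPM in male p53 KO (0.62 ± 0.07, adjusted p = 1.76e-07). The male p53 Y202C libraries were the lowest, at 9.41, 9.11, and 8.79 CPM (-0.87 ± 0.07, adjusted p = 1.41e-10). Lif thus rose in one of these male lines and fell in the other. In female cells it rose in p53 Y202C, from 16.2 ± 0.42 to 20.9 ± 1.30 CPM (0.37 ± 0.07, adjusted p = 7.73e-05). Female p53 R172H (17.2 ± 1.16 CPM) and p53 Y217C (15.1 ± 0.944 CPM) libraries overlapped those of female p53 KO. Where Il6 was highest, in female p53 R172H, Lif did not pass the test (0.09 ± 0.07, adjusted p = 0.267).

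Osmr (chr15:6813577-6874969) encodes the oncostatin M receptor subunit that pairs with gp130. It was read at 110, 114, and 118 CPM in female p53 KO, at 235, 257, and 232 CPM in female p53 R172H, and at 332, 272, and 334 CPM in female p53 Y202C. The rises were 1.08 ± 0.08 (adjusted p = 2.88e-11) and 1.45 ± 0.08 (1.97e-13). Female p53 Y217C libraries, at 149, 149, and 159 CPM, rose by a smaller value (0.41 ± 0.08, adjusted p = 0.000139). Male p53 KO libraries held 127, 145, and 148 CPM and overlapped with male p53 R172H (134, 153, and 154 CPM). The male p53 Y202C libraries, at 101, 110, and 119 CPM, were lower (-0.35 ± 0.08, adjusted p = 0.000422). The lowest libraries of all were those of male p53 Y217C, at 42.3, 35.7, and 40.3 CPM. Osmr therefore went up in the 3 female mutant lines and down in male p53 Y202C.

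Stat3 (chr11:100885098-100939540), the transcription factor downstream of these receptors, was abundant in every line and moved in the same order as Osmr at the top. It was read at 180, 184, and 189 CPM in female p53 KO, 262, 256, and 247 CPM in female p53 R172H, and 271, 274, and 274 CPM in female p53 Y202C. Both rises were called (0.47 ± 0.05, adjusted p = 1.65e-08, and 0.57 ± 0.05, adjusted p = 7.77e-10). In female p53 Y217C it fell to 166, 159, and 160 CPM (-0.19 ± 0.05, adjusted p = 0.00250). Male p53 KO libraries held 180, 197, and 194 CPM, and male p53 Y202C libraries 135, 127, and 123 CPM (-0.57 ± 0.05, adjusted p = 4.75e-10). Male p53 R172H libraries, at 160, 179, and 170 CPM, were slightly lower than male p53 KO (-0.16 ± 0.05, adjusted p = 0.0124). This last call was lost without male p53 KO replicate 2 (adjusted p = 0.0640) or without male p53 R172H replicate 1 (0.0799). Male p53 Y217C held the least, 89.2, 85.7, and 95.0 CPM. Stat3 shares 72 of its 9527 exon bases with the neighbouring Stat5a on the other strand. Stat5a was at 3.63 to 26.7 CPM by line, and the strand used in counting is not stated.

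C3 (chr17:57203970-57228136) encodes the central protein of the complement cascade and is a widely used marker of reactive astrocytes. It spanned the widest range of any of the genes with reads in all lines, 509-fold from the lowest line mean to the highest. In female p53 KO it was read at 0.285, 0.346, and 0.473 CPM (29, 27, and 49 counts). In female p53 R172H it stood at 213, 183, and 167 CPM, a rise of 8.98 ± 0.21 (adjusted p = 1.01e-20). Per kilobase of exon, C3 was then the most abundant of the 10 genes in that line, at 36.4 CPM per kb against 26.8 for Stat3 and 19.9 for Osmr. Female p53 Y202C gave 15.3, 17.2, and 16.2 CPM (5.45 ± 0.21, adjusted p = 1.46e-16). Female p53 Y217C gave 1.47, 0.877, and 1.23 CPM, still above every KO library (1.69 ± 0.28, adjusted p = 1.72e-05). Male p53 KO started higher, at 0.979, 1.35, and 1.59 CPM. Male p53 R172H overlapped with it (1.45, 1.92, and 1.21 CPM, 0.19 ± 0.20, adjusted p = 0.487). Male p53 Y202C stood far above, at 25.6, 24.2, and 21.6 CPM (4.16 ± 0.17, adjusted p = 1.81e-16). Male p53 Y217C libraries gave 2.98, 2.51, and 3.94 CPM, all above male p53 KO.

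Serping1 (chr2:84765387-84775444) encodes the C1 inhibitor, which restrains the first complement protease and the contact system. Female p53 KO libraries gave 0.353, 0.384, and 0.608 CPM. Female p53 R172H gave 8.55, 9.86, and 8.22 CPM (4.29 ± 0.27, adjusted p = 1.33e-12) and female p53 Y202C gave 3.04, 3.37, and 3.38 CPM (2.85 ± 0.27, adjusted p = 2.84e-09). Every library of these 2 lines lay above the KO libraries. Female p53 Y217C, at 1.15, 0.826, and 0.665 CPM, was also called (0.97 ± 0.29, adjusted p = 0.00716), but the call was lost without female p53 Y217C replicate 1 (adjusted p = 0.0677). The male lines behaved otherwise. Male p53 KO (1.82, 2.60, and 2.75 CPM), p53 R172H (1.94, 3.73, and 3.17 CPM), and p53 Y202C (2.02, 3.26, and 2.81 CPM) all overlapped. Male p53 Y217C, at 0.424, 0.246, and 0.455 CPM, lay below all of them.

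Serpina3n (chr12:104406729-104414329) encodes a secreted serine protease inhibitor related to human alpha-1-antichymotrypsin and is a marker of reactive astrocytes. It had 0 counts in all 6 p53 KO libraries, so folds against KO are lower bounds set by 3 counts over the line. Male p53 Y217C gave 333, 198, and 324 counts (4.15, 2.56, and 4.34 CPM), at least 420-fold over male p53 KO. These values and the male p53 KO counts are those by which it was chosen. The male p53 R172H and Y202C comparisons use the same KO libraries, so their adjusted p-values are not independent of the choice. Female p53 R172H gave 176, 247, and 312 counts (1.87, 2.63, and 2.38 CPM), at least 224-fold over female p53 KO (adjusted p = 3.65e-11). The ranges of these 2 lines touched, as 1 male p53 Y217C library lay within the female p53 R172H range. The other mutant lines were lower. Male p53 Y202C held 42, 40, and 32 counts, at least 55.1-fold over KO (adjusted p = 1.66e-08), and female p53 Y202C 11, 27, and 25 counts, at least 30.7-fold (5.70e-07). Female p53 Y217C held 17, 6, and 11 counts, at least 14.3-fold (4.63e-05). Male p53 R172H held 4, 11, and 4 counts, near the floor of 3 counts, at least 8.75-fold over KO (0.000937). All 6 mutant lines therefore had Serpina3n reads and neither KO line did. The mutant lines differ from KO by the retrovirus and the eGFP sort as well as by the allele, and these cannot be told apart.

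Serpina3n belongs to a cluster of similar genes, and the authors counted uniquely aligned reads, so reads from stretches shared with a paralog are uncertain. Of 11 other Serpina3 genes listed, 2 were in the count table. Serpina3g, the better measured, did not follow Serpina3n in male cells. It rose in female p53 R172H (10.9 ± 0.443 against 0.426 ± 0.0896 CPM, 4.65 ± 0.24, adjusted p = 2.61e-14), in female p53 Y202C (3.01 ± 0.146 CPM, 2.80 ± 0.24), and also in the female p53 Y217C line (1.28 ± 0.176 CPM, 1.57 ± 0.25). In male p53 Y202C it fell by 3.51 ± 0.33 on the log2 scale (adjusted p = 9.63e-10), and in male p53 Y217C it was at 0.390 ± 0.121 CPM against 1.06 ± 0.329 in male p53 KO. The Serpina3n level in male p53 Y217C went with the highest Gfap and Aqp4 levels of the series, and the part of that in the result was not tested. In female p53 R172H, with Serpina3n at 2.29 ± 0.391 CPM, Gfap was at 0.0482 ± 0.0139 CPM.

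**Figure D2:**
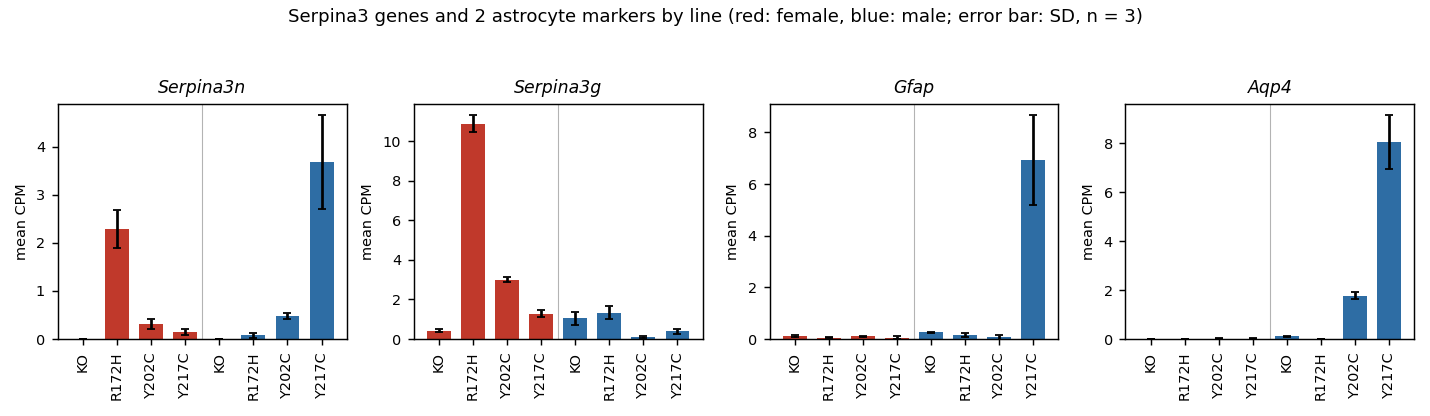
Mean CPM ± SD (n = 3 libraries) of Serpina3n, Serpina3g, Gfap, and Aqp4 in the 8 lines. Serpina3n is high in male p53 Y217C (3.68 CPM) and female p53 R172H (2.29 CPM), Serpina3g in female p53 R172H (10.9 CPM), and Gfap and Aqp4 in male p53 Y217C (6.93 and 8.06 CPM).

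Lcn2 (chr2:32384633-32388252) encodes lipocalin 2, which binds iron-loaded siderophores. Female p53 KO held 7, 8, and 6 counts (0.0687, 0.102, and 0.0579 CPM). Female p53 R172H reached 7.13, 7.43, and 6.95 CPM (6.56 ± 0.28, adjusted p = 5.41e-16) and female p53 Y202C 6.77, 7.59, and 7.90 CPM (6.61 ± 0.28, adjusted p = 8.69e-16). These 2 lines overlapped, unlike their C3 levels. Female p53 Y217C, at 0.423, 0.191, and 0.369 CPM, rose by a smaller value (2.12 ± 0.35, adjusted p = 1.76e-05). In male cells the only call was in p53 Y202C, at 0.460, 0.542, and 0.503 CPM against 2, 6, and 3 counts in male p53 KO (3.89 ± 0.37, adjusted p = 1.14e-09). Male p53 R172H (6, 4, and 6 counts) did not pass the test (0.90 ± 0.54, adjusted p = 0.189). Male p53 Y217C held 2, 4, and 0 counts, the lowest mean of the 8 lines in the line with the most Serpina3n, though it overlapped with male p53 KO.

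Cp (chr3:19957054-20009145) encodes ceruloplasmin, the copper-containing ferroxidase. It was the member that male p53 Y202C raised most in CPM, to 244, 280, and 308 against 29.4, 35.3, and 38.6 in male p53 KO (3.01 ± 0.15, adjusted p = 5.46e-15). No other line was as high. Female p53 KO gave 15.6, 23.2, and 23.9 CPM. Female p53 R172H gave 140, 132, and 117 CPM (2.63 ± 0.15, adjusted p = 8.44e-14) and female p53 Y202C 90.6, 80.7, and 92.2 CPM (2.07 ± 0.14, adjusted p = 8.52e-12). Female p53 Y217C, at 42.0, 35.3, and 36.8 CPM, rose by 0.87 ± 0.14 (adjusted p = 1.59e-05). All 3 female mutant lines lay above their KO. Male p53 R172H gave 22.9, 28.7, and 31.4 CPM, which did not pass the test (-0.32 ± 0.14, adjusted p = 0.0713) but was called lower without male p53 KO replicate 1 (adjusted p = 0.0332) or without male p53 R172H replicate 3 (0.0391). Male p53 Y217C gave 110, 86.1, and 108 CPM, above every male p53 KO library. Cp shares 108 of its 9566 exon bases with Hps3 on the other strand. Hps3 was at 13.8 to 25.3 CPM.

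Steap4 (chr5:7960457-7982213) encodes a membrane reductase of iron and copper. Female p53 KO gave 0.295, 0.436, and 0.502 CPM, female p53 R172H 32.8, 30.7, and 26.0 CPM (6.18 ± 0.29, adjusted p = 3.80e-15), and female p53 Y202C 3.88, 4.31, and 4.12 CPM (3.32 ± 0.29, adjusted p = 4.57e-10). The libraries of these 2 female lines did not overlap for Steap4, whereas they did for Lcn2. Female p53 Y217C, at 1.09, 0.610, and 0.621 CPM, was called (0.93 ± 0.33, adjusted p = 0.0187), but not without female p53 KO replicate 1 (adjusted p = 0.0955) or female p53 Y217C replicate 1 (0.181). In male cells Steap4 fell in p53 Y202C, to 2, 12, and 2 counts against 27, 66, and 71 in male p53 KO (-2.80 ± 0.50, adjusted p = 2.42e-05). Male p53 R172H, at 0.320, 0.705, and 0.560 CPM, overlapped with male p53 KO, at 0.326, 0.525, and 0.541 CPM. Male p53 Y217C libraries were all higher, at 0.898, 0.776, and 1.41 CPM. In male p53 Y202C, then, Steap4 fell while Cp, C3, and Lcn2 rose.

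**Figure D3:**
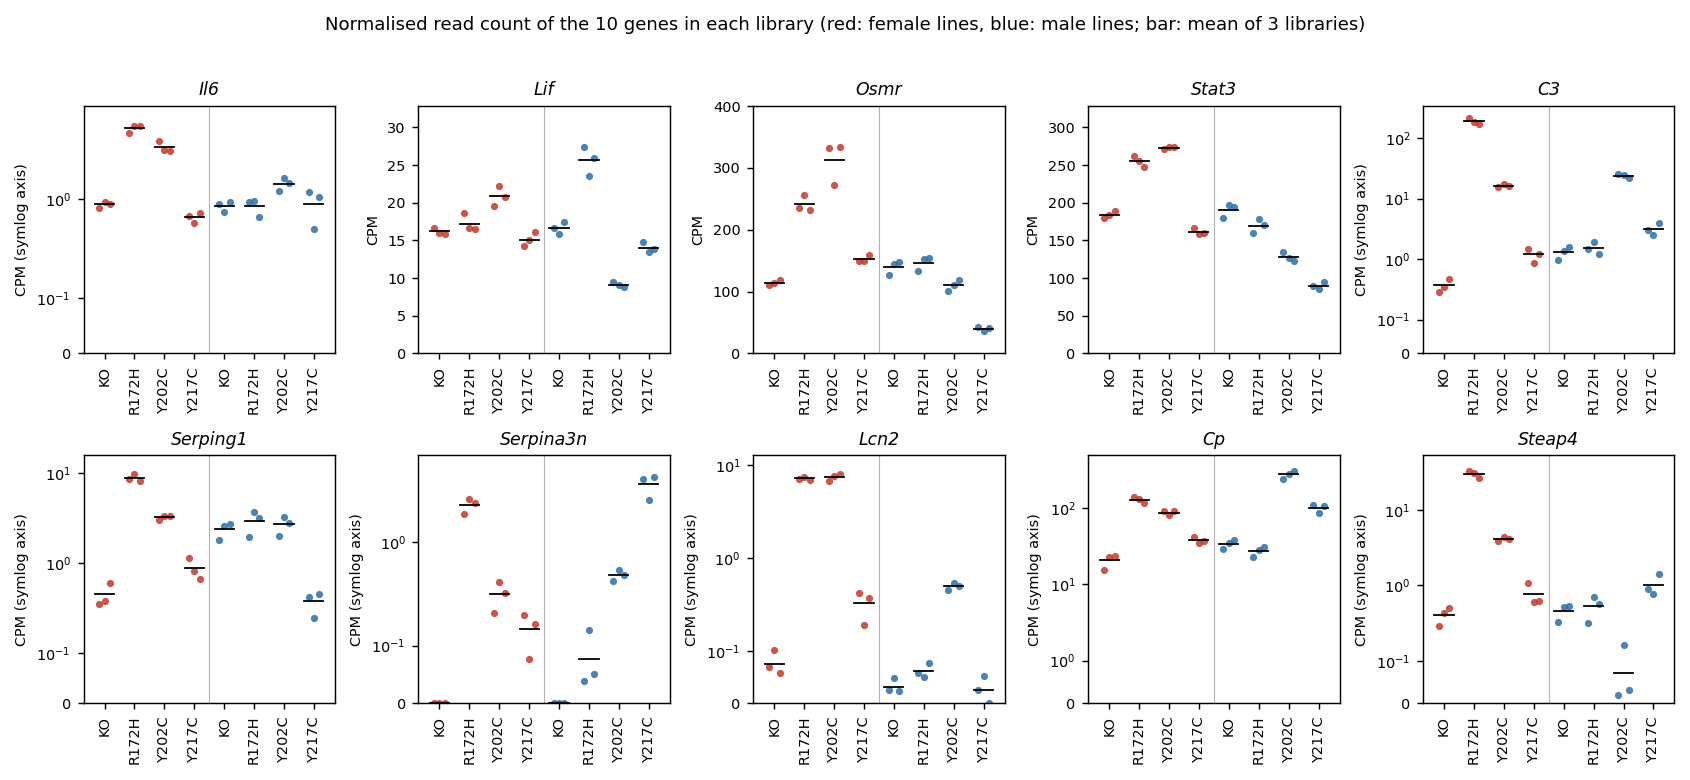
CPM of the 10 genes in each of the 24 libraries, 1 panel per gene, with female lines in red, male lines in blue, and a bar at the mean of 3 libraries. The y axis is a symmetric log scale, linear below 0.1 CPM (below 1 CPM for Cp), and a linear scale for Lif, Osmr, and Stat3. C3 is highest in female p53 R172H (mean 187 CPM), Cp in male p53 Y202C (277 CPM), and Serpina3n is at 0 in both KO lines.

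In female p53 R172H, 9 of the 10 genes were called higher than in female p53 KO, and none lower. Lif was the exception, and Lcn2, Serpina3n, Steap4, and Il6 are in the table only through lines where they are high. Across all genes, 34.4% were called higher and 35.3% lower in this comparison, with a median log2 fold change of -0.01, against 3.46 for the 10 genes. In female p53 Y202C all 10 were called higher, against 34.3% of all genes, with a median of 2.46. In female p53 Y217C 7 were called higher, against 28% of all genes, and Stat3 lower (28.7%), with a median of 0.90. Lif and Il6 did not pass the test there. Markers of other cell types moved in these comparisons, some up and some down. All 6 fibroblast and mural markers were called higher in the R172H and Y202C lines and 4 of 6 in the Y217C line. The summed levels of these 6 were 22300 to 24000 CPM in female p53 KO, 35500 to 41500 in p53 R172H, 31300 to 37000 in p53 Y202C, and 23600 to 25500 in p53 Y217C. The 3 measured microglial and macrophage markers summed to 45.8 to 49.6 CPM in female p53 KO, 105 to 116 in p53 R172H, 75.0 to 90.3 in p53 Y202C, and 97.0 to 105 in p53 Y217C, mostly as Tmem119. The 3 measured endothelial markers summed to 214 to 241 CPM in female p53 KO, 50.1 to 52.2 in p53 R172H, 98.3 to 118 in p53 Y202C, and 146 to 171 in p53 Y217C, and the 3 measured neuronal markers to 126 to 129, 31.3 to 38.2, 42.0 to 56.3, and 96.3 to 98.4 CPM in the same order. Within the endothelial and neuronal sums of female p53 Y202C, Cdh5 (1.14 ± 0.24) and Syt1 (1.33 ± 0.31) were called higher. Tek, Flt1, Tubb3, and Map2 were called lower there. The part of any of these in the result was not tested. The 3 female comparisons share the female p53 KO libraries, and the 3 male comparisons share the male p53 KO libraries, the comparison by which Serpina3n was chosen included.

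In male p53 R172H, 2 of the 10 genes were called higher, Lif and Serpina3n, against 20.2% of all genes, and Stat3 was called lower (20.5% of all genes). The median of the 10 was 0.15, and 0.12 without Serpina3n. Male p53 Y202C had 5 genes higher, Serpina3n, Lcn2, C3, Cp, and Il6, against 37.6% of all genes, and 4 lower, Steap4, Osmr, Lif, and Stat3, against 35.4%. The count in each direction was thus near the background in male p53 Y202C. Serping1 did not pass the test there. Serpina3n was chosen with the male p53 KO counts, so its calls in male p53 R172H and Y202C are not independent of the choice. Fibroblast and mural markers summed to 7980 to 9810 CPM in male p53 Y202C against 25300 to 30300 in male p53 KO. The list did not move as a whole. Col1a1 went from a mean of 17300 to 3360 CPM, and Col1a2 (-0.98 ± 0.09) and Pdgfra (-1.32 ± 0.12) were called lower. Dcn was called higher (0.83 ± 0.19, adjusted p = 0.000348), and Lum and Pdgfrb did not pass the test. Endothelial markers went from 204 to 224 CPM in male p53 KO to 54.4 to 60.5 CPM, and the microglial and macrophage sum went from 68.0 to 84.5 to 41.8 to 45.6 CPM, although Cd68 within it went from a mean of 3.53 to 22.9 CPM. Neuronal markers summed to 100 CPM or above in each male p53 KO library and to 47.9 to 54.0 CPM in male p53 Y202C. Map2 within that sum was called higher (1.28 ± 0.09, adjusted p = 4.33e-12). Their part in the result was not tested. In male p53 Y217C, described without a test, 5 genes had a positive and 5 a negative log2 fold change. Serpina3n, C3 (1.23), Steap4, and Cp (1.56) were above 1, as were 10.8% of all genes. Serping1 (-2.68), Osmr (-1.83), and Stat3 (-1.08) were below -1, as were 9.36% of all genes.

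**Figure D4:**
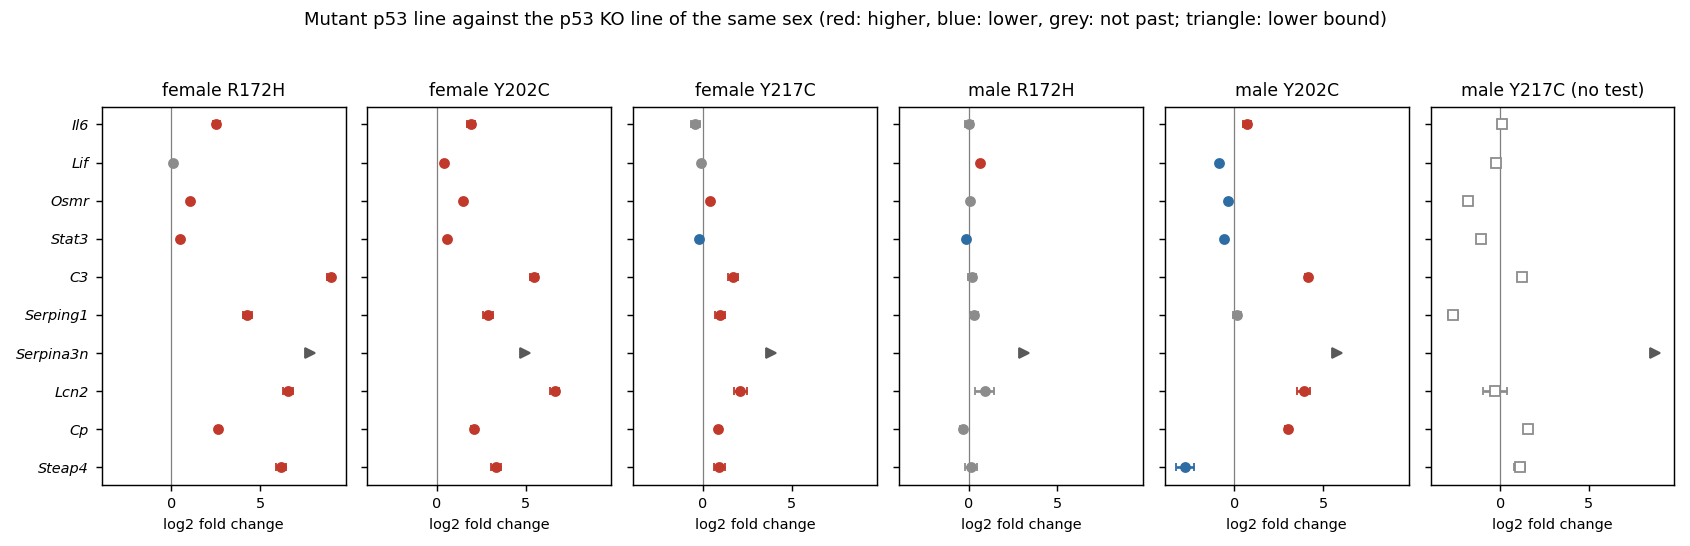
Log2 fold change ± SE of each gene against the p53 KO line of the same sex in the 6 mutant lines, in red where called higher, blue where called lower, and grey where the test was not passed. Open squares are male p53 Y217C values, shown without a test, and triangles are lower bounds for Serpina3n. C3 reaches 8.98 in female p53 R172H and 0.19 in male p53 R172H.

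Male and female lines with the same allele were compared next. Between the p53 KO lines, 4 of the 10 genes were called higher in male cells, against 17.2% of all genes, and none lower (13.8%). These were Serping1 (2.41 ± 0.27, adjusted p = 1.94e-07), C3 (1.85 ± 0.26, 4.92e-06), Cp (0.72 ± 0.14, 0.000308), and Osmr (0.29 ± 0.08, 0.00665). For R172H, 9 genes were called lower in male than in female cells, against 29.7% of all genes, and Lif was called higher (32.4%). The differences were -6.94 ± 0.18 for C3 (adjusted p = 5.12e-20), -6.83 ± 0.29 for Lcn2 (5.87e-16), and -5.85 ± 0.29 for Steap4 (9.00e-15). Trp53 in these lines was at 1960 ± 65.4 CPM in female and 2290 ± 80.2 CPM in male p53 R172H. For Y202C, 6 genes were called lower in male cells and 2, C3 and Cp, higher, each against 37.7% of all genes. Here Trp53 was at 572 to 605 CPM in the female and 2260 to 2440 CPM in the male libraries, and its part in the difference was not tested. For Y217C, without a test, male values were above female ones by more than 1 on the log2 scale for Serpina3n (4.64), Cp (1.42), and C3 (1.39), as for 11.4% of all genes. Male values were below by more than 1 for Lcn2 (-3.59), Osmr (-1.95), and Serping1 (-1.24), as for 8.26% of all genes. Trp53 was at 3550 to 3870 CPM in the female and 1190 to 1250 CPM in the male p53 Y217C libraries, and its part was not tested.

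Whether the response to an allele differed between the sexes was tested as the change from KO in male cells minus that in female cells. Serpina3n could not be estimated because both KO lines were at 0, which left 9 genes. For R172H, 8 of the 9 had a smaller change in male cells (28.3% of all genes) and Lif a larger one (29.7%). C3 differed most, by -8.79 ± 0.30 (adjusted p = 1.70e-17), followed by Steap4 (-6.06 ± 0.43, 2.24e-11) and Lcn2 (-5.66 ± 0.75, 7.03e-07). For Y202C, again 8 of 9 had a lower change in male cells (33.5% of all genes) and 1, Cp, a higher one (34.5%). Steap4 differed most (-6.12 ± 0.55, adjusted p = 7.02e-10), as it rose in the female and fell in the male line. Osmr (-1.80 ± 0.11, 1.21e-12), Stat3 (-1.13 ± 0.07, 1.12e-12), and Lif (-1.24 ± 0.10, 1.36e-10) likewise went up in female and down in male p53 Y202C. C3 rose in both lines, by 1.30 less on the log2 scale in male cells (-1.30 ± 0.30, 0.000508).

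Other genes of the same pathways were counted from lists written out with the 10 genes, which hold some of them. A gene below 1 CPM in both KO lines is in the table only through lines where it is higher. The filter thus favours a call of higher in these counts too. Il31ra, Il1rn, Hp, and Iigp1, named below, lay under 1 CPM in female p53 KO. Where a list holds Serpina3n, the male calls of that gene are not independent of the choice. Over all genes the shares called higher and lower were 34.4% and 35.3% in female p53 R172H, 34.3% and 34.3% in female p53 Y202C, 28% and 28.7% for female p53 Y217C, 20.2% and 20.5% in male p53 R172H, and 37.6% and 35.4% in male p53 Y202C. Of 17 receptors and JAK-STAT components, 14 were called higher and 1 lower in female p53 R172H, 15 and 2 in the female p53 Y202C line, and 7 and 4 in female p53 Y217C. Male p53 R172H had 5 higher and 3 lower, and male p53 Y202C 4 higher and 11 lower. Il31ra, a partner of Osmr in the IL-31 receptor, stood at 19.2 ± 1.07 CPM in female p53 R172H against 0.219 ± 0.0364 in KO (6.43 ± 0.30, adjusted p = 3.32e-15). Lifr, the LIF receptor, rose in female p53 Y202C (92.6 against 19.6 CPM, 2.24 ± 0.10) and fell in male p53 Y202C (6.79 against 22.5 CPM, -1.74 ± 0.10). Cntfr, the CNTF receptor, fell in female p53 R172H (2.57 against 11.6 CPM, -2.18 ± 0.12). In male p53 Y202C the rising components were led by Jak2 (111 against 42.9 CPM, 1.37 ± 0.06) and Il6ra (13.3 against 5.32 CPM, 1.32 ± 0.09), and the median of the list was -0.43 against 0.01 for all genes.

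Among 6 measured ligands of the family, 2 were called higher and 2 lower in female p53 R172H, 3 and 1 in female p53 Y202C, 0 and 3 in the female p53 Y217C line, 3 and 1 in male p53 R172H, and 1 and 2 in male p53 Y202C. Of 20 STAT3 feedback and target genes, 13 were higher and 2 lower in female p53 R172H, 11 and 6 in female p53 Y202C, 6 and 6 in the female p53 Y217C line, 10 and 4 in male p53 R172H, and 11 and 8 in male p53 Y202C. Socs3 rose in female p53 R172H from 15.6 ± 0.497 to 100 ± 2.82 CPM (2.68 ± 0.07, adjusted p = 5.64e-20). Pim1, a kinase induced by STAT3, rose in male p53 Y202C from 11.8 to 41.5 CPM (1.81 ± 0.06, adjusted p = 5.78e-18), although Stat3 itself fell there. Of the list, 6 higher and 6 lower in female p53 Y217C stood beside 28% and 28.7% of all genes, near the background, and 11 and 8 in male p53 Y202C beside 37.6% and 35.4%. Of 24 NF-kB pathway genes, 18 were higher and 4 lower in female p53 R172H, 16 and 4 in female p53 Y202C, 12 and 4 in the female p53 Y217C line, 10 and 3 in male p53 R172H, and 12 and 8 in male p53 Y202C. In female p53 R172H, 34.4% of all genes were higher and 35.3% lower. Il1r1, the IL-1 receptor, rose in female p53 R172H (3.08 ± 0.10) and female p53 Y202C (3.51 ± 0.11) and fell in male p53 Y202C (-1.97 ± 0.11). Tnfaip3, an inhibitor of NF-kB signalling, fell in both of those female lines (-2.09 ± 0.16 and -1.41 ± 0.16).

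Of 14 measured acute-phase genes, 12 were higher and 1 lower in female p53 R172H, against 34.4% and 35.3% of all genes, with a median log2 fold change of 3.76 against -0.01. In female p53 Y202C 11 were higher and 3 lower, in female p53 Y217C 10 and 4, in male p53 R172H 3 and 3 (20.2% and 20.5% of all genes), and in male p53 Y202C 7 and 1 (37.6% and 35.4%). The male p53 R172H count was near the background. Il1rn, the IL-1 receptor antagonist, rose in female p53 R172H from 0.0911 ± 0.0538 to 1080 ± 75.5 CPM (13.55 ± 0.15, adjusted p = 4.18e-27) and in female p53 Y202C to 88.9 ± 3.06 CPM (9.95 ± 0.15). Haptoglobin (Hp) was read at 81.8 ± 3.48 CPM in female p53 R172H and 0.0237 ± 0.0134 CPM in female p53 KO. The genes that rose in male p53 Y202C included the metallothionein Mt2 (181 ± 14.8 against 5.36 ± 0.747 CPM, 5.07 ± 0.12, adjusted p = 1.43e-20), which fell in female p53 Y202C (-0.45 ± 0.13, adjusted p = 0.00286). In male p53 Y217C, without a test, Itih3, a heavy chain of the inter-alpha-trypsin inhibitor, was at 4.93 against 0.310 CPM and Mt2 at 35.5 against 5.36 CPM.

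Of 16 measured complement genes, 11 were higher and 2 lower in female p53 R172H, 13 and 1 in female p53 Y202C, 9 and 2 in the female p53 Y217C line, 4 and 2 in male p53 R172H, and 4 and 5 in male p53 Y202C. The shares of all genes were 34.4% and 35.3% in female p53 R172H, 20.2% and 20.5% in male p53 R172H, and 37.6% and 35.4% in male p53 Y202C. C4b, which feeds the C3 convertase, rose in female p53 R172H (73.5 against 1.42 CPM, 5.69 ± 0.25), female p53 Y202C (22.5 CPM, 3.98 ± 0.24), and male p53 Y202C (5.85 against 2.14 CPM, 1.43 ± 0.23). C3ar1, the receptor for the C3a fragment, fell in female p53 R172H (1.28 against 12.2 CPM, -3.25 ± 0.17), female p53 Y202C (-0.51 ± 0.15), and male p53 Y202C (-2.03 ± 0.16). The proteases that the C1 inhibitor binds, C1s (C1s1) and C1r (C1ra), rose in male p53 R172H (1.86 ± 0.23 and 1.42 ± 0.17), where Serping1 did not pass the test. In male p53 Y217C, without a test, the highest complement gene was Clu (242 ± 27.3 against 14.2 ± 2.14 CPM). Of 18 iron and copper genes, 9 were higher and 5 lower in female p53 R172H, 9 and 7 in female p53 Y202C, 6 and 6 in the female p53 Y217C line, 3 and 4 in male p53 R172H, and 9 and 7 in male p53 Y202C. All genes stood at 34.4% and 35.3% in female p53 R172H, 28% and 28.7% in female p53 Y217C, 20.2% and 20.5% in male p53 R172H, and 37.6% and 35.4% in male p53 Y202C. The list was near these shares in male p53 R172H and in the female p53 Y217C line. Steap3, an endosomal iron reductase, rose from 7.35 to 220 CPM in female p53 R172H (4.90 ± 0.10), and the transferrin receptor Tfrc fell there (-1.53 ± 0.17).

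Of 11 measured genes of the A1 (neuroinflammatory) list, 9 were higher and 1 lower in female p53 R172H, 7 and 3 in female p53 Y202C, 6 and 3 in the female p53 Y217C line, 2 and 3 in male p53 R172H, and 3 and 4 in male p53 Y202C. Of all genes, 34.4% were higher and 35.3% lower in female p53 R172H, 20.2% and 20.5% in male p53 R172H, and 37.6% and 35.4% in male p53 Y202C, so the male A1 counts were near the background. Iigp1, an interferon-inducible GTPase, rose in female p53 R172H from 0.353 ± 0.149 to 98.0 ± 17.2 CPM (8.11 ± 0.37, adjusted p = 2.69e-15). Of 12 A2 (ischaemic) genes, 4 were higher and 7 lower in female p53 R172H, 7 and 3 in female p53 Y202C, 4 and 7 in the female p53 Y217C line, 4 and 2 in male p53 R172H, and 3 and 5 in male p53 Y202C. Of 12 pan-reactive genes, which include Lcn2, Serpina3n, Steap4, Osmr, and Cp, 8 were higher and 2 lower in female p53 R172H, 7 and 3 in female p53 Y202C, 6 and 5 in the female p53 Y217C line, 2 and 5 in male p53 R172H, and 4 and 8 in male p53 Y202C. The chemokine Cxcl10 rose in female p53 R172H (33.8 against 0.828 CPM, 5.36 ± 0.16) and fell in male p53 R172H (0.790 against 2.57 CPM, -1.71 ± 0.15). The hyaluronan receptor Cd44 fell in female p53 R172H (308 ± 15.0 against 806 ± 43.3 CPM, -1.39 ± 0.08), as did the small heat shock protein Hspb1 (57.6 ± 1.26 against 105 ± 3.13 CPM, -0.87 ± 0.08).

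**Figure D5:**
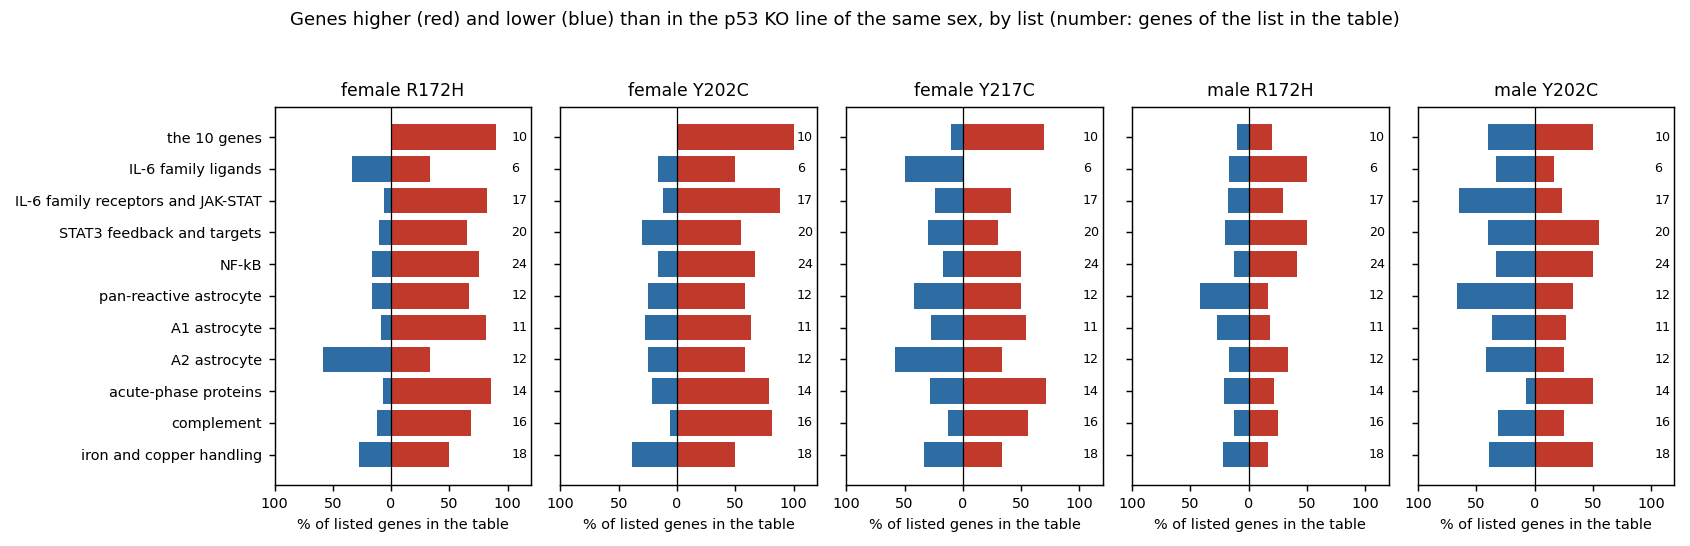
Percent of the measured genes of each list called higher (right, red) or lower (left, blue) than the p53 KO line of the same sex, in the 5 tested comparisons, with the number of measured genes beside each list. Of the 17 receptor and JAK-STAT genes, 15 are higher in female p53 Y202C and 11 are lower in male p53 Y202C.

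The genes whose levels followed each member most closely over the 8 line means are given as a description, by Pearson's r of log2 CPM among 11760 genes. Serpina3n was followed by Trp53inp1, a p53-induced nuclear protein (r = 0.990, from 3.45 CPM in male p53 KO to 14.2 CPM in male p53 Y217C), Nbdy (0.978), and Tmem205 (0.976). Lcn2 was followed by Prkab2 and C4b (both 0.962), Steap4 by Gas1 (0.988) and Apol6 (0.981), and Cp by Surf1 (0.979) and Timp3 (0.975). Osmr was followed by Dnm1 (0.993) and Stat5a (0.978), the latter a STAT factor next to Stat3. Among the 10 genes themselves, Osmr and Stat3 were closest (0.948), then Lcn2 and Il6 (0.907) and C3 and Il6 (0.886). Cp and Lif were the least alike (-0.611). The 8 points share libraries and scaling, and 8 line means leave these values imprecise.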

How the data were processed

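RNA-seq was performed on 24 libraries, 3 from each of 8 lines, grouped by the labels. The authors aligned reads with STAR 2.5.1a and counted uniquely aligned, unambiguous reads per Ensembl gene with featureCounts. The values deposited are raw counts for 14427 genes, from which the authors had removed ribosomal and low genes. The strand used in counting is not given in the sources used here. Total counts ran from 52787288 to 136503809 per library (median 80684345), and 3 counts were taken as the floor. This floor covers counting error only, whereas the SD and SE values also hold the spread between libraries.

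Gene identifiers were matched to GENCODE M21 (GRCm38) for symbols and positions, which named 14350 genes and left 77 unnamed. Tests were run by edgeR 4.0.16 under R 4.3.3, with TMM scaling, 1 mean per line over all 24 libraries, glmQLFit and glmQLFTest, and Benjamini-Hochberg adjustment over all genes. A filter of 1 CPM in 2 or more libraries removed 0 genes. The comparisons tested were 10, and 3 that involve male p53 Y217C were described without a test. On simulated counts for female p53 R172H against KO, run on 13877 genes, the test found 198 of the 200 changed genes and made 14 false calls. Each simulated gene had the same mean in all lines, except the 200, all above 1 CPM, that were changed in female p53 R172H. In the data far more genes were called, and several of the 10 genes lay below 1 CPM in KO, so these rates do not carry over.

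The 10 genes and all gene lists were chosen with earlier results of these data known. Named besides the 10 were, per list and comparison, up to 2 called genes with the largest rise and 2 with the largest fall (where the higher line had 10 counts or more in each library), the 3 genes most like each member over the 8 line means (log2 CPM, prior count 2, at least 5 CPM in a line), and Serpina3 paralogs. Markers, Trp53, and the overlapping neighbours Hps3 and Stat5a were named as checks. Promoters were taken from RefSeq on GRCm38.p6. Alternatives were limma 3.58.1 voomWithQualityWeights (the test of the study), DESeq2 1.42.0, its size factors in edgeR, other filters, a fit of the compared lines only, a replicate block, leaving out each library, and an added fold threshold of 0.5 on the log2 scale. Some genes of the lists are not reported here by name.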

Additional observations from a re-analysis of the deposited data

Results flagged for a closer look

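The change from p53 KO differed between male and female lines for 18 results with a test, given here as the male minus the female log2 change (edgeR quasi-likelihood interaction). For R172H these were C3 (-8.79), Steap4 (-6.06), Lcn2 (-5.66), Serping1 (-4.01), Cp (-2.95), Il6 (-2.55), Osmr (-1.01), Stat3 (-0.63), and Lif (0.54). For Y202C they were Steap4 (-6.12), Lcn2 (-2.72), Serping1 (-2.69), Osmr (-1.80), C3 (-1.30), Lif (-1.24), Il6 (-1.19), Stat3 (-1.13), and Cp (0.93). In the background, 58% of all genes differed in this way for R172H and 68% for Y202C. For Y217C, Serping1 (-3.65) and Osmr (-2.24) rose above KO in every female library and lay below KO in every male library. That difference was not tested, because male p53 Y217C entered the choice of genes. Sex and culture cannot be told apart in any of these.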

How the results depend on the processing

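Of 97 results on single genes and comparisons, 14 changed their call or their sign under at least 1 alternative. DESeq2, its size factors in edgeR, and no filter on low counts changed none of the 97. The number of genes called in female p53 Y217C was 8, and 4 when only the lines compared were fitted, since genes too low in those lines were then not tested. It was 6 to 8 with a library left out. In male p53 Y202C the number was 9, and 6 when only the lines compared were fitted. That fit covered 80 of the 97 results, and the others could not be compared there. Under voomWithQualityWeights the Cp change in male p53 R172H was called (-0.34, adjusted p = 0.0325) and the Steap4 change in female p53 Y217C was not (0.70, adjusted p = 0.0832). An added threshold of 0.5 removed 7 calls of small changes, in Stat3, Osmr, and Lif.

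All changes of sign were in values near 0 that passed no test. Il6 in male p53 R172H was at -0.00125, and at 0.0314 under voom, 3.4e-05 under the stricter filter, and 0.00061 with the replicate block, and it ran from -0.0945 to 0.14 with a library left out. Leaving out a library took Steap4 in male p53 R172H from -0.15 to 0.41, Serping1 in male p53 Y202C from -0.0045 to 0.34, and Il6 between the KO lines from -0.12 to 0.0407.

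Replicate numbers did not pair the libraries. Deviations from the line means correlated at a mean of -0.0116 over 84 pairs of libraries with the same number and 0.00571 over 168 with different numbers. With the replicate block the calls numbered 3 in male p53 R172H, 9 in male p53 Y202C, 9, 10, and 8 in female p53 R172H, Y202C, and Y217C, and 4, 10, and 8 between the sexes for KO, R172H, and Y202C, as without it.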
